A study of Mus musculus with 9 samples.

Results

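Of 40 genes that assemble, branch, cap, sever and bundle actin filaments, 35 were lower in LPS-treated SRF-KO macrophages than in LPS-treated Control macrophages. When libraries were scaled by their totals alone, 27 were lower. Of all 11560 tested genes 37.9% were lower and 39.1% higher, or 21.1% and 61.1% with library totals. The 40 genes were taken by name from their known roles, with earlier results of these data known, and placed in 8 subclasses. These were 9 genes of the Arp2/3 complex, 9 of the WASP and WAVE groups, 6 for monomer binding and 5 for severing and depolymerisation. The others were 4 coronins, 4 for barbed-end capping, 2 for bundling and 1 formin. All 40 were found among the 22524 counted genes, and all 40 were among the 11560 genes that passed the filter on low counts. RNA sequencing was done on bone marrow-derived macrophages (BMDMs), primary macrophages grown from C57BL/6 mouse bone marrow in culture for 7 days. The 3 groups of 3 libraries were SRF-KO cells given lipopolysaccharide (LPS, a bacterial cell wall component) for 6 h, Control cells given LPS for 6 h and Control cells left untreated. The genotype of Control cells is labelled wild type, whereas the labels are silent on how and in which cells SRF was deleted and on the age and number of the mice. There was no untreated SRF-KO group among the samples analysed here, so the LPS response of SRF-KO cells was not measured.

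Actin monomers join filaments mainly at the barbed end, which capping proteins block. The Arp2/3 complex, switched on by proteins of the WASP and WAVE groups, starts a new filament as a branch on an older one, whereas formins start and extend unbranched filaments. Cofilins and gelsolin sever filaments, coronins help to take branches apart, thymosins and profilin hold monomers, and fascin and L-plastin tie filaments into bundles. In macrophages this machinery drives spreading, migration, podosomes and the uptake of particles. Serum response factor (SRF) binds CArG boxes in DNA and drives many cytoskeletal genes, together with cofactors that respond to the pool of free actin monomers.

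Levels are given as CPM, which is a gene's count relative to the size of its library, after TMM scaling, which sets libraries level by the bulk of their genes, and each group has n = 3 libraries. Differences were tested with edgeR (quasi-likelihood), p was adjusted by Benjamini-Hochberg over the 11560 genes, and a gene passed below 0.05. Total counts ranged from 16987011 to 24912173 in SRF-KO LPS, from 15321839 to 19009123 in Control LPS and from 15867737 to 17606538 in untreated Control. Srf, the targeted gene, had 34, 24 and 12 counts in the SRF-KO LPS libraries, against 738, 799 and 900 in Control LPS and 810, 975 and 884 in untreated Control. Scaling mattered, because TMM factors were 1.04 in SRF-KO LPS, 0.810 to 0.814 in Control LPS and 1.18 to 1.19 in untreated Control. When libraries were scaled by their totals alone, the median log2 fold change of all tested genes moved to 0.37 for SRF-KO LPS against Control LPS and to -0.57 for Control LPS against untreated Control, and the values with library totals are therefore given where they change a call or a direction. All 10 macrophage markers were tested, and their summed level was 25323 to 25538 CPM in SRF-KO LPS, 24513 to 25022 CPM in Control LPS and 18300.1 to 18870.3 CPM in untreated Control. Among 9 neutrophil markers 3 passed the filter and Elane had 0 counts, and the summed level of the list was 18.8 to 20.5 CPM in SRF-KO LPS, 6.34 to 7.33 CPM in Control LPS and 2.24 to 2.56 CPM in untreated Control. The list of 6 stromal and endothelial markers, of which 2 were tested and Col1a1 and Col3a1 had 0 counts, summed to 1.71 to 2.15 CPM in SRF-KO LPS, 7.05 to 8.94 CPM in Control LPS and 1.76 to 2.07 CPM in untreated Control. Like the actin genes it was thus lower in SRF-KO LPS than in Control LPS, and the part of these and of the neutrophil markers in the results was not tested. Marker lists of dendritic, T and NK, B and erythroid cells each summed to at most 5.69 CPM in any library. For Uty, Ddx3y, Kdm5d and Eif2s3y, 4 Y-linked genes, the SRF-KO LPS libraries together held 3, 1 and 2 counts, against 1700 to 2183 in Control LPS and 2179 to 2749 in untreated Control, so genotype and sex of the cells cannot be told apart. Nothing in the labels ties replicates to separate mice or cultures, so p-values measure the spread between these libraries, which may be technical. In bulk RNA, fewer cells of a type and less RNA per cell cannot be told apart.

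SRF-KO macrophages given LPS held less RNA for most of the 40 listed actin genes than Control macrophages given LPS. Of the 40 genes, 35 passed the test as lower and 2 as higher (Dstn and Coro1c), while Arpc5l, Wasl and Diaph1 did not pass. Over all 11560 tested genes 77% passed, 37.9% as lower and 39.1% as higher. Of these 40 genes 87.5% were lower, a larger share, but the list was chosen with earlier results of these data known. With library totals 27 were lower and 8 higher, where 82.1% of all tested genes passed, 21.1% as lower and 61.1% as higher. The median log2 fold change of the 40 genes was -0.66 with TMM and -0.30 with library totals. Its difference from the median of all tested genes was -0.67, which a change of scaling leaves as it is by construction. Summed, the 40 genes held 1.86 to 1.88% of all counts in the SRF-KO LPS libraries. The share was 2.56 to 2.64% in Control LPS and 2.59 to 2.67% in untreated Control. Such a share amounts to scaling by library totals. With TMM the sum was 17933 to 18154 CPM in SRF-KO LPS, 31635 to 32547 CPM in Control LPS and 21969 to 22472 CPM in untreated Control. The libraries of SRF-KO LPS and Control LPS did not overlap for 38 of the 40 genes, as for 78% of all tested genes. By at least 2-fold, 8 of the 40 were lower and 0 higher, beside 11.2% and 13.9% of all tested genes.

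**Figure D1:**
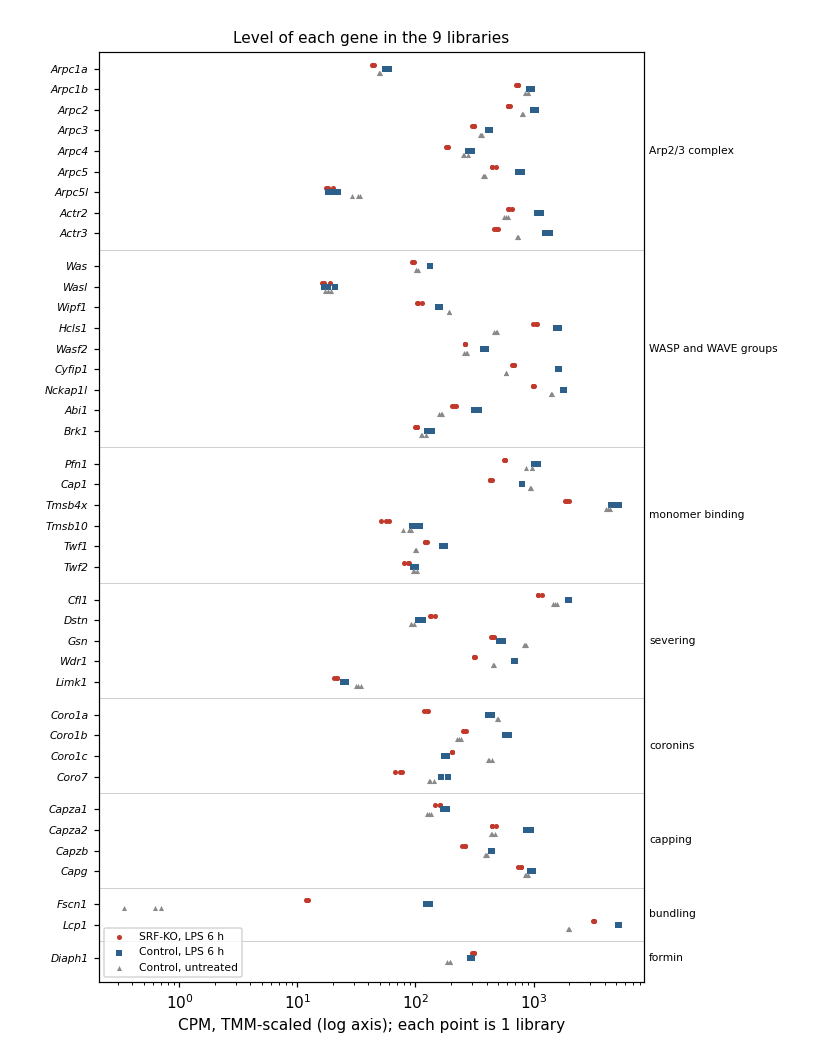
Each row is a gene, grouped by subclass, and each point is the TMM-scaled CPM (log axis) of 1 library, with circles for SRF-KO LPS, squares for Control LPS and triangles for untreated Control. For 35 of 40 genes SRF-KO LPS was called lower than Control LPS, and Fscn1 spans the widest range, at 11.8 to 12.3 CPM in SRF-KO LPS, 123 to 133 CPM in Control LPS and 0.338 to 0.694 CPM in untreated Control.

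Whether these transcripts were higher or lower in Control macrophages given LPS than in untreated Control macrophages rested on the scaling. Their summed share of all counts, given above, overlapped between these groups, whereas their summed TMM-scaled CPM was higher in Control LPS. With TMM 31 of the 40 genes passed as higher and 7 as lower, beside 81.7% of all tested genes in either direction and 40.8% in each. With library totals 11 passed as higher and 26 as lower, beside 21% and 67.8% of all tested genes (88.8% in either direction). The libraries did not overlap for 38 of the 40, as for 82.1% of all tested genes. The median log2 fold change was 0.29 with TMM and -0.26 with library totals. It lay 0.31 above the median of all tested genes, a gap that is the same under either scaling by construction, since scaling shifts all genes alike. The 11 genes that were higher under both scalings were Arpc5, Actr2, Actr3, Hcls1, Cyfip1, Abi1, Twf1, Coro1b, Capza2, Fscn1 and Lcp1. The 7 that were lower under both were Arpc5l, Wipf1, Cap1, Gsn, Limk1, Coro1a and Coro1c. Against untreated Control, SRF-KO LPS had 12 of the genes higher and 25 lower (39.4% and 40.1% of all tested genes, 79.5% in either direction), or 6 and 28 with library totals (29.8% and 52.3%, 82.1% in either direction). In this case 36 of the 40 did not overlap, as for 79.5% of all tested genes. In that comparison genotype and LPS differ together, and all 3 comparisons share libraries with each other.

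**Figure D2:**
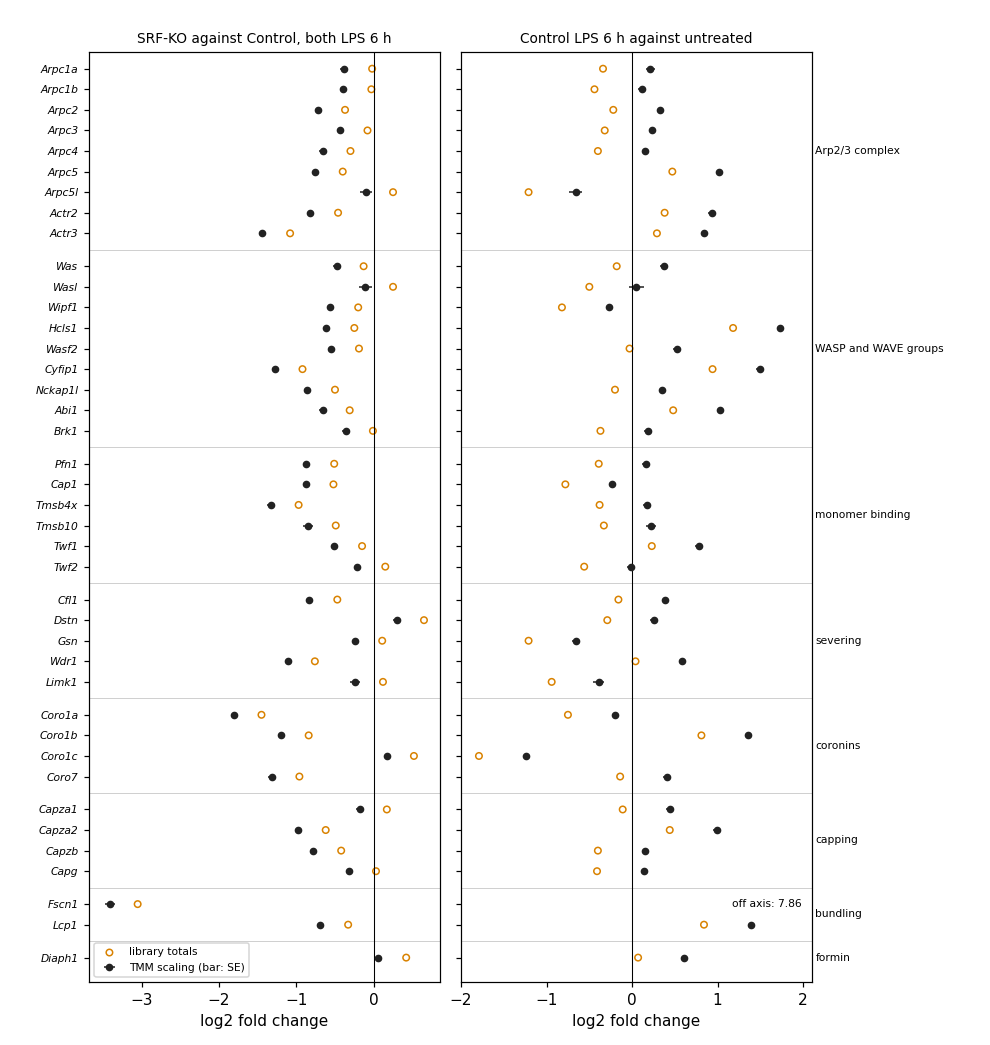
Log2 fold change of each gene in SRF-KO LPS against Control LPS (left) and in Control LPS against untreated Control (right), with filled circles and SE bars for TMM scaling and open circles for library totals. Library totals shift all genes right on the left panel and left on the right panel, where many genes of the right panel change sign. Fscn1, at 7.86 in the right panel, lies off the axis.

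Promoter windows were read for the CArG box, the site that SRF binds, because so many of these genes were lower in SRF-KO LPS than in Control LPS. RefSeq windows on GRCm38.p6, from 250 bases before to 50 bases after a start site, were found for 34 of the 40 genes (44 windows). A CArG box without mismatch, on either strand, stood in 1 of the 44 windows (2.27%), beside 535 of 32851 windows of all genes (1.63%). With at most 1 mismatch there were 6 of 44 (13.6%), beside 21.1% of all windows. The share among these genes thus lay near or below that of all genes, and no match says only that these letters are absent from this window. The 4 printed sequences are the 250 bases before the start site of the gene with the exact box (Arpc4), of Wdr1, which was lower in SRF-KO, and of the paralogs Cfl1 and Dstn, which went in opposite directions. Capitals mark CArG boxes, exact in Arpc4 and with 1 mismatch in the other 3, and they begin 250 bases before the start site in Arpc4, 53 in Wdr1, 165 in Cfl1 and 106 in Dstn. Dstn held another box with 1 mismatch, 40 bases past the start site and thus outside the printed bases. Boxes with 1 mismatch in windows of Arpc1a and Gsn are not printed. No window was found for Arpc5l, Cyfip1, Nckap1l, Twf2, Coro1b and Diaph1.
Arpc4 GRCm38.p6 chr6:113377863-113378112 plus strand: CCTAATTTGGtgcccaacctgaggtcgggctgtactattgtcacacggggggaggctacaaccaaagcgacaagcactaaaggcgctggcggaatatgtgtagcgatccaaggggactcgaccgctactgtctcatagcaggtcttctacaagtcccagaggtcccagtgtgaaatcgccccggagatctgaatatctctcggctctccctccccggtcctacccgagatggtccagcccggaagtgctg
Wdr1 GRCm38.p6 chr5:38561700-38561949 minus strand: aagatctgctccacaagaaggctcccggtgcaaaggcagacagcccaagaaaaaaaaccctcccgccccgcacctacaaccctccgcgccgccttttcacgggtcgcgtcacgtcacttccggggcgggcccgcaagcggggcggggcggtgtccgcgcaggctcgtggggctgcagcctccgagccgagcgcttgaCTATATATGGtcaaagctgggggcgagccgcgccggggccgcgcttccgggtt
Cfl1 GRCm38.p6 chr19:5490205-5490454 plus strand: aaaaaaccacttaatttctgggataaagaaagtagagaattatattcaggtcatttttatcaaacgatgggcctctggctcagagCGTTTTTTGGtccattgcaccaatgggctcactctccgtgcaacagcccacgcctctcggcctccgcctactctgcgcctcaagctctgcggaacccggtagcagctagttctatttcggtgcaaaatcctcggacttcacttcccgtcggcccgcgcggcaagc
Dstn GRCm38.p6 chr2:143915081-143915330 plus strand: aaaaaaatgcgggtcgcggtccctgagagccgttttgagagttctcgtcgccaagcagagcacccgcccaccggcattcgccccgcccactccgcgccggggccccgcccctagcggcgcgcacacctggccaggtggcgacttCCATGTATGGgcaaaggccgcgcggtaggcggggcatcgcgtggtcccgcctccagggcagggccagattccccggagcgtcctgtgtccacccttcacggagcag

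The Arp2/3 complex has 2 actin-related proteins, Arp2 (Actr2) and Arp3 (Actr3), and supporting subunits, some of which exist as alternative isoforms. Of its 9 genes 8 were lower in SRF-KO LPS than in Control LPS (6 with library totals) and 1 did not pass, with a median log2 fold change of -0.66. Actr3 (ENSMUSG00000026341, chromosome 1, 125392905 to 125435727, minus strand, GRCm38) was at 483, 499.8 and 466 CPM in SRF-KO LPS, 1256, 1375 and 1297 CPM in Control LPS and 744, 735 and 719 CPM in untreated Control. The groups did not overlap, and SRF-KO LPS lay below untreated Control as well. The log2 fold change against Control LPS was -1.44 (SE 0.0401, edgeR adjusted p = 1.46e-28), the furthest from 0 in the complex, and against untreated Control it was -0.60 (SE 0.0396, edgeR adjusted p = 1.39e-16). Actr2 was at 621, 660.4 and 602 CPM in SRF-KO LPS, 1064, 1157 and 1104 CPM in Control LPS and 606, 582 and 561 CPM in untreated Control. Here SRF-KO LPS overlapped with untreated Control, unlike for Actr3, and the log2 fold change was -0.82 against Control LPS (SE 0.0412). The difference of 0.11 between SRF-KO LPS and untreated Control passed the test (edgeR adjusted p = 0.0176), but it did not pass without replicate 2 of SRF-KO LPS (0.06, edgeR adjusted p = 0.187) or without replicate 3 of untreated Control (0.08, edgeR adjusted p = 0.0973), and it was -0.09 with library totals.

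Arpc5 and Arpc5l encode alternative versions of the smallest subunit, and they parted under LPS. Arpc5 was at 444, 478 and 443 CPM in SRF-KO LPS, 733, 806 and 772 CPM in Control LPS and 387, 377 and 374 CPM in untreated Control. Arpc5l was at 17.6, 20 and 18 CPM in SRF-KO LPS, 18, 22 and 19.9 CPM in Control LPS and 32.5, 33.6 and 28.8 CPM in untreated Control. LPS thus raised Arpc5 in Control cells by 1.02 on the log2 scale (SE 0.0404) and Arpc5l fell by 0.66 (SE 0.0778), both in the same direction with library totals (0.47 and -1.21). Between SRF-KO LPS and Control LPS Arpc5 was lower (-0.76, SE 0.0400) and Arpc5l gave -0.10 (SE 0.0830, edgeR adjusted p = 0.263), or 0.25 with library totals. Arpc2, a structural core subunit, was at 604, 631 and 609 CPM in SRF-KO LPS, 996, 1045 and 999.8 CPM in Control LPS and 794, 822 and 805 CPM in untreated Control. Its SRF-KO libraries were the lowest of the 9 (-0.72 against Control LPS, SE 0.0374). Arpc4, whose window held the exact CArG box, was at 187, 182 and 186 CPM in SRF-KO LPS, 278, 300 and 298 CPM in Control LPS and 254, 277 and 259 CPM in untreated Control. Its log2 fold change against Control LPS was -0.66 (SE 0.0406), and again all SRF-KO libraries lay below all Control libraries. The part of the CArG box in this difference was not tested. Arpc3, Arpc1b and Arpc1a, the last 2 being alternative versions of the same subunit, were lower too, with log2 fold changes of -0.44, -0.39 and -0.38. With library totals Arpc1a and Arpc1b did not pass (-0.02, edgeR adjusted p = 0.72, and -0.03, edgeR adjusted p = 0.448). LPS in Control cells gave 0.93 for Actr2 and 0.84 for Actr3 (0.38 and 0.29 with library totals), whereas the 0.11 to 0.33 of Arpc1a, Arpc1b, Arpc2, Arpc3 and Arpc4 turned to between -0.22 and -0.44 with library totals.

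The WASP and WAVE groups switch the Arp2/3 complex on, WASP (Was) with its partner WIP (Wipf1) in blood cells, and WAVE2 (Wasf2) inside a complex with Cyfip1, Nckap1l (HEM1), Abi1 and Brk1. Of these 9 genes, with N-WASP (Wasl) and the cortactin relative Hcls1, 8 were lower in SRF-KO LPS than in Control LPS (7 with library totals), with a median log2 fold change of -0.56. Cyfip1 (ENSMUSG00000030447, chromosome 7, 55841745 to 55932602, plus strand, GRCm38) was at 662, 679 and 679 CPM in SRF-KO LPS, 1637, 1645 and 1623 CPM in Control LPS and 583, 585 and 584 CPM in untreated Control. LPS raised it in Control cells (1.49, SE 0.0367, or 0.94 with library totals), and in SRF-KO LPS it was lower than in Control LPS (-1.28, SE 0.0364, edgeR adjusted p = 2.92e-28). Against untreated Control, SRF-KO LPS gave 0.21 with TMM and 0.01 with library totals (edgeR adjusted p = 0.745). Nckap1l, the blood cell form of the Nap1 subunit, was at 993, 999.9 and 989.6 CPM in SRF-KO LPS, 1803, 1773 and 1819 CPM in Control LPS and 1424, 1413 and 1398 CPM in untreated Control. Its SRF-KO libraries lay below both Control groups (-0.86 against Control LPS, SE 0.0365, and -0.51 against untreated Control, SE 0.0363). Abi1, which links WAVE to kinases, was at 210.2, 219 and 202 CPM in SRF-KO LPS, 316, 343 and 341 CPM in Control LPS and 163, 167 and 159.6 CPM in untreated Control, so SRF-KO LPS lay between the Control groups.

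Wasf2 was at 261, 262 and 265 CPM in SRF-KO LPS, 396, 371 and 384 CPM in Control LPS and 258, 274 and 269.7 CPM in untreated Control. It was thus lower than in Control LPS (-0.55, SE 0.0379), and the difference from untreated Control was -0.02 (edgeR adjusted p = 0.57), or -0.22 with library totals (edgeR adjusted p = 2.4e-06). Brk1, the smallest subunit of the WAVE complex, gave -0.36 against Control LPS, and -0.01 with library totals (edgeR adjusted p = 0.9). Hcls1 was at 1055, 995 and 1073 CPM in SRF-KO LPS, 1631, 1538 and 1587 CPM in Control LPS and 481, 465 and 492 CPM in untreated Control. It stood above untreated Control in both LPS groups (1.12 in SRF-KO LPS and 1.73 in Control LPS), and SRF-KO LPS was lower than Control LPS (-0.61, SE 0.0390). Was, which lies on the X chromosome, was at 93.8, 96.4 and 95.4 CPM in SRF-KO LPS, 133, 134 and 132 CPM in Control LPS and 102, 102 and 105 CPM in untreated Control. It was lower than in Control LPS (-0.48, SE 0.0411), and since sex and genotype cannot be told apart, the part of its place on X was not tested, as for Tmsb4x. Wipf1 was at 114, 104 and 106 CPM in SRF-KO LPS, 161, 161 and 156 CPM in Control LPS and 192, 192 and 192 CPM in untreated Control. It was lower in SRF-KO LPS than in Control LPS (-0.56) and lower in Control LPS than in untreated Control (-0.27, or -0.82 with library totals). Wasl was at 16.2 to 18.8 CPM in SRF-KO LPS, 16.9 to 20.8 CPM in Control LPS and 17.1 to 19.1 CPM in untreated Control, with overlapping groups and no call in any of the 3 comparisons with TMM (edgeR adjusted p = 0.233, 0.589 and 0.491). With library totals Wasl passed in all 3 comparisons. It was 0.25 for SRF-KO LPS against Control LPS (edgeR adjusted p = 0.00802) and -0.50 for Control LPS against untreated Control (edgeR adjusted p = 1.37e-06). For SRF-KO LPS against untreated Control it was -0.25 (edgeR adjusted p = 0.00413).

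All 6 genes that handle actin monomers were lower in SRF-KO LPS than in Control LPS (5 with library totals), with a median log2 fold change of -0.86. Tmsb4x (ENSMUSG00000049775, chromosome X, 167207093 to 167209315, minus strand, GRCm38) encodes thymosin beta-4, the main monomer-holding peptide of blood cells. It was at 1834, 2016 and 1914 CPM in SRF-KO LPS, 4495, 5266 and 4708 CPM in Control LPS and 4314, 4457 and 4079 CPM in untreated Control. Both Control groups lay above every SRF-KO library (-1.33 against Control LPS, SE 0.0477, edgeR adjusted p = 6.42e-25, and -1.16 against untreated Control, SE 0.0475). Per kb of merged exons Tmsb4x held the highest level of the 40 genes in all 3 groups, with 1401 CPM per kb in SRF-KO LPS, 3518 in Control LPS and 3124 in untreated Control. Per kb of the principal transcript it was also the highest of the 36 genes with such a length (not Arpc1b, Abi1, Capzb and Diaph1). Tmsb10, thymosin beta-10, was at 56.3, 51.4 and 60.2 CPM in SRF-KO LPS, 110, 92.9 and 98.8 CPM in Control LPS and 88.4, 77.8 and 91.9 CPM in untreated Control (-0.85 against Control LPS, SE 0.0609). Thymosin, profilin and cofilin genes have processed copies elsewhere in the genome, so reads of these genes can be split or lost in counting.

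Pfn1, profilin-1, which feeds monomers to growing barbed ends, was at 564, 569 and 575 CPM in SRF-KO LPS, 1024, 1094 and 1005 CPM in Control LPS and 871, 967 and 966 CPM in untreated Control. Cap1, which recharges monomers released by cofilin, was at 425, 430 and 447 CPM in SRF-KO LPS, 799, 794 and 802 CPM in Control LPS and 936, 943 and 926 CPM in untreated Control. Both were lower in SRF-KO LPS than in either Control group, by log2 fold changes of -0.87 (SE 0.0417) and -0.88 (SE 0.0369) against Control LPS. The twinfilins Twf1 and Twf2, which bind monomers and barbed ends, differed from each other. Twf1 was at 121, 126 and 119.9 CPM in SRF-KO LPS, 169, 177 and 174 CPM in Control LPS and 102, 102 and 99.7 CPM in untreated Control (-0.51 against Control LPS, SE 0.0398). Twf2 was at 80.1 to 88.3 CPM in SRF-KO LPS, 95.4 to 100.1 CPM in Control LPS and 95.3 to 103 CPM in untreated Control, and its -0.21 against Control LPS (SE 0.0469) turned to 0.15 with library totals. In Control cells, LPS gave 0.78 for Twf1 (0.23 with library totals). For Twf2 LPS gave -0.01 (edgeR adjusted p = 0.851), or -0.56 with library totals (edgeR adjusted p = 7.72e-14).

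**Figure D3:**
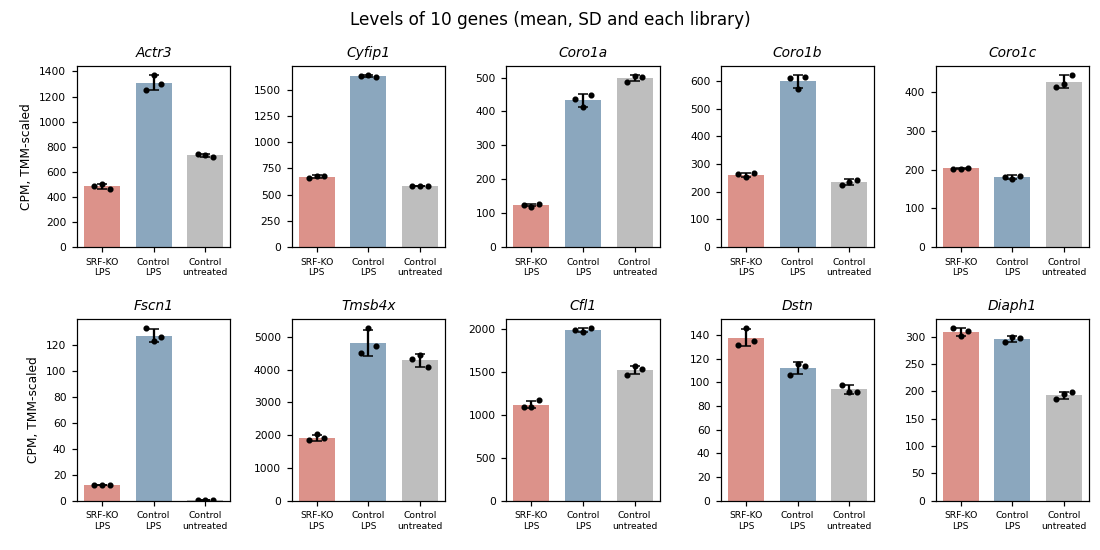
CPM (TMM-scaled) of 10 genes, with bars for group means, whiskers for SD and points for the 3 libraries of SRF-KO LPS (left), Control LPS (middle) and untreated Control (right). Coro1a was lowest in SRF-KO LPS at 124 ± 4.14 CPM, whereas Dstn was highest there at 138 ± 7.42 CPM and Coro1c was highest in untreated Control at 427 ± 16.2 CPM.

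The severing genes split between the paralogs Cfl1 (cofilin-1) and Dstn (destrin), both of which encode small proteins that sever and depolymerise filaments. Cfl1 was at 1098, 1094 and 1169.9 CPM in SRF-KO LPS, 1993, 1969 and 2016 CPM in Control LPS and 1473, 1567 and 1534 CPM in untreated Control. Dstn (ENSMUSG00000015932, chromosome 2, 143915320 to 143943324, plus strand, GRCm38) was at 132, 146 and 135 CPM in SRF-KO LPS, 106, 116 and 114 CPM in Control LPS and 98, 92.2 and 92 CPM in untreated Control. Against Control LPS, SRF-KO LPS thus had lower Cfl1 (-0.83, SE 0.0389, edgeR adjusted p = 3.42e-21) and higher Dstn (0.30, SE 0.0458, edgeR adjusted p = 3.28e-07), both in the same direction with library totals (-0.47 and 0.65). Wdr1 (AIP1), which speeds severing by cofilin, was at 316, 312 and 322 CPM in SRF-KO LPS, 691, 678 and 688 CPM in Control LPS and 452, 464 and 456 CPM in untreated Control. It moved with Cfl1 rather than Dstn, at -1.11 against Control LPS (SE 0.0364) and -0.53 against untreated Control (SE 0.0362). Gsn, gelsolin, which severs and caps in a calcium-dependent way, was at 460, 439 and 457 CPM in SRF-KO LPS, 548, 511 and 545 CPM in Control LPS and 824, 849.9 and 856 CPM in untreated Control. LPS lowered it in Control cells under both scalings (-0.66 and -1.21), while the -0.24 between SRF-KO LPS and Control LPS turned to 0.11 with library totals. Limk1, the kinase that turns cofilin off, was at 20.4 to 21.8 CPM in SRF-KO LPS, 24.1 to 25.6 CPM in Control LPS and 31.2 to 34.3 CPM in untreated Control, and its -0.24 against Control LPS turned to 0.12 with library totals. As a subclass, 4 of these 5 genes were lower and 1 higher in SRF-KO LPS than in Control LPS (median -0.24), or 2 and 2 with library totals (median 0.11). With library totals the median of all tested genes was 0.37. The difference of the subclass median from that of all tested genes was -0.26 under either scaling.

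The coronins had the lowest median of the subclasses with at least 4 genes (-1.26 for SRF-KO LPS against Control LPS, -0.90 with library totals), with 3 lower and 1 higher. Coro1a (ENSMUSG00000030707, chromosome 7, 126699773 to 126707787, minus strand, GRCm38), the coronin of white blood cells, was at 125, 119 and 128 CPM in SRF-KO LPS, 437, 413 and 449 CPM in Control LPS and 488, 505 and 503 CPM in untreated Control. Every SRF-KO library was far below every Control library, with a log2 fold change of -1.80 against Control LPS (SE 0.0412, edgeR adjusted p = 2.06e-31) and -2.01 against untreated Control (SE 0.0409, edgeR adjusted p = 3.29e-33). Coro1b was at 263, 254 and 267 CPM in SRF-KO LPS, 611, 573 and 616 CPM in Control LPS and 224, 236 and 243 CPM in untreated Control. Unlike Coro1a it was raised by LPS in Control cells (1.36, SE 0.0401, or 0.81 with library totals), and it was lower in SRF-KO LPS than in Control LPS (-1.20, SE 0.0398). Coro1c (ENSMUSG00000004530, chromosome 5, 113842436 to 113908758, minus strand, GRCm38) was at 202, 202 and 204 CPM in SRF-KO LPS, 182, 175 and 184 CPM in Control LPS and 414, 422 and 445 CPM in untreated Control. LPS lowered it in Control cells (-1.24, SE 0.0391), and it was slightly higher in SRF-KO LPS than in Control LPS (0.17, SE 0.0398, edgeR adjusted p = 0.000255, or 0.52 with library totals). Coro7, a coronin linked to the Golgi, was at 77.6, 66.6 and 73.4 CPM in SRF-KO LPS, 188, 166 and 187 CPM in Control LPS and 131, 133 and 143 CPM in untreated Control. It was lower in SRF-KO LPS than in both Control groups (-1.32 and -0.91).

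The capping genes were all 4 lower in SRF-KO LPS than in Control LPS with TMM (median -0.55), and 2 were lower and 1 higher with library totals (median -0.19). Capza2, an alpha subunit of capping protein, was at 442, 485 and 443 CPM in SRF-KO LPS, 865, 957 and 882 CPM in Control LPS and 475, 449 and 438 CPM in untreated Control. It was lower in SRF-KO LPS than in Control LPS (-0.98, SE 0.0430) and gave 0.01 against untreated Control (edgeR adjusted p = 0.861, or -0.18 with library totals). Capza1, the other alpha subunit gene of the 40, was at 147, 162 and 160.2 CPM in SRF-KO LPS, 176, 185 and 171 CPM in Control LPS and 135, 130.5 and 126 CPM in untreated Control, and its -0.18 against Control LPS (SE 0.0433) turned to 0.17 with library totals. Capzb, the beta subunit shared by both, was at 261, 246 and 262 CPM in SRF-KO LPS, 439, 437 and 441 CPM in Control LPS and 391, 403 and 397 CPM in untreated Control (-0.78 against Control LPS, SE 0.0376). Capg, a gelsolin relative that caps without severing, was at 789.9, 733 and 780.5 CPM in SRF-KO LPS, 973, 925 and 985 CPM in Control LPS and 849, 869.8 and 899 CPM in untreated Control. Its -0.32 against Control LPS turned to 0.03 with library totals.

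Both bundling genes rose with LPS in Control cells under both scalings and were lower in SRF-KO LPS. Fscn1 (ENSMUSG00000029581, chromosome 5, 142960343 to 142973185, plus strand, GRCm38), which encodes fascin, the bundling protein of filopodia and mature dendritic cells, was at 12, 11.8 and 12.3 CPM in SRF-KO LPS, 133, 123 and 126 CPM in Control LPS and 0.338, 0.622 and 0.694 CPM in untreated Control. The untreated libraries held 33 counts in all, so the gene passed the filter on low counts through the LPS groups. SRF-KO LPS lay between the Control groups, at -3.41 against Control LPS (SE 0.0614, edgeR adjusted p = 1.01e-34), the lowest of the 40, and at 4.45 against untreated Control (SE 0.161, edgeR adjusted p = 6.16e-25). Fascin also marks mature dendritic cells, and the summed level of 6 dendritic cell markers was 3.88 to 5.69 CPM in SRF-KO LPS, 3.43 to 4.19 CPM in Control LPS and 0.335 to 0.82 CPM in untreated Control, with all 6 detected, 1 tested, and their part in the result not tested. Lcp1, L-plastin, the bundling protein of white blood cells, was at 3221, 3248 and 3259 CPM in SRF-KO LPS, 5271, 5257 and 5159 CPM in Control LPS and 2010.2, 2009 and 1966 CPM in untreated Control. It too lay between the Control groups, at -0.69 against Control LPS (SE 0.0373) and 0.70 against untreated Control (SE 0.0374). The formin gene Diaph1 was at 316, 302 and 311 CPM in SRF-KO LPS, 290.2, 299 and 298 CPM in Control LPS and 186, 196 and 198 CPM in untreated Control. It gave 0.06 for SRF-KO LPS against Control LPS (SE 0.0376, edgeR adjusted p = 0.115), or 0.42 with library totals (edgeR adjusted p = 6.41e-13), and 0.61 for LPS in Control cells, or 0.07 with library totals (edgeR adjusted p = 0.102).

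Ratios of related genes within a library do not depend on scaling, and 11 pairs were compared. Between SRF-KO LPS and Control LPS the libraries did not overlap in 10 of 11 pairs, each with exact two-sided permutation p = 0.1, the smallest that 3 against 3 libraries can give, and p = 0.11 after Benjamini-Hochberg adjustment, so the design cannot reach 0.05 here. The log2 ratio of Actr3 to Actr2 was -0.36, -0.40 and -0.37 in SRF-KO LPS, 0.24, 0.25 and 0.23 in Control LPS and 0.30, 0.34 and 0.36 in untreated Control. The ratio was thus lower in the SRF-KO libraries, by a difference of -0.62 from Control LPS and -0.71 from untreated Control, against an SD within groups of at most 0.0318. Which of these genes is the higher in SRF-KO LPS depends on the length used, since Actr3 had 104 and Actr2 121 CPM per kb of merged exons there, and 188 and 173 CPM per kb of the principal transcript. The log2 ratio of Dstn to Cfl1 was -3.05, -2.90 and -3.11 in SRF-KO LPS, -4.23, -4.08 and -4.14 in Control LPS and -3.91, -4.09 and -4.06 in untreated Control, a shift of 1.13 towards Dstn in SRF-KO LPS against Control LPS. The log2 ratio of Coro1a to Coro1b was -1.07, -1.09 and -1.07 in SRF-KO LPS, -0.48, -0.47 and -0.46 in Control LPS and 1.12, 1.10 and 1.05 in untreated Control. Coro1a was thus below Coro1b in counts in both LPS groups and above it in untreated Control, and SRF-KO LPS lay 0.60 lower than Control LPS (a difference of -0.60). For Coro1c to Coro1b, the mean log2 ratio was -0.36 in SRF-KO LPS, -1.73 in Control LPS and 0.87 in untreated Control.

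The capping pair Capza1 to Capza2 had a mean log2 ratio of -1.55 in SRF-KO LPS, -2.34 in Control LPS and -1.80 in untreated Control, a difference of 0.80 between SRF-KO LPS and Control LPS. Arpc5 to Arpc5l had 4.62 in SRF-KO LPS, 5.27 in Control LPS and 3.59 in untreated Control, and Capg to Gsn had 0.76 in SRF-KO LPS, 0.85 in Control LPS and 0.05 in untreated Control. In both pairs the LPS groups stood apart from untreated Control. The LPS groups did not overlap with each other either. From Control LPS to SRF-KO LPS the ratio differed by -0.66 for Arpc5 to Arpc5l and by -0.08 for Capg to Gsn. Tmsb10 to Tmsb4x had -5.10 in SRF-KO LPS, -5.58 in Control LPS and -5.64 in untreated Control, and Twf1 to Twf2 had 0.53 in SRF-KO LPS, 0.82 in Control LPS and 0.04 in untreated Control. Was to Wasl had 2.46 in SRF-KO LPS, 2.84 in Control LPS and 2.51 in untreated Control, and SRF-KO LPS overlapped with untreated Control in this pair. The Arpc1b to Arpc1a ratio was the pair whose SRF-KO LPS and Control LPS libraries overlapped, at 4.05 in SRF-KO LPS, 4.06 in Control LPS and 4.16 in untreated Control (exact permutation p = 1 for SRF-KO LPS against Control LPS, a difference of -0.01). Between Control LPS and untreated Control 8 of 11 pairs did not overlap, again with exact permutation p = 0.1, or p = 0.138 after adjustment. Single genes did not overlap for 82.1% of all tested genes in that comparison, and other gene pairs were not measured.

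**Figure D4:**
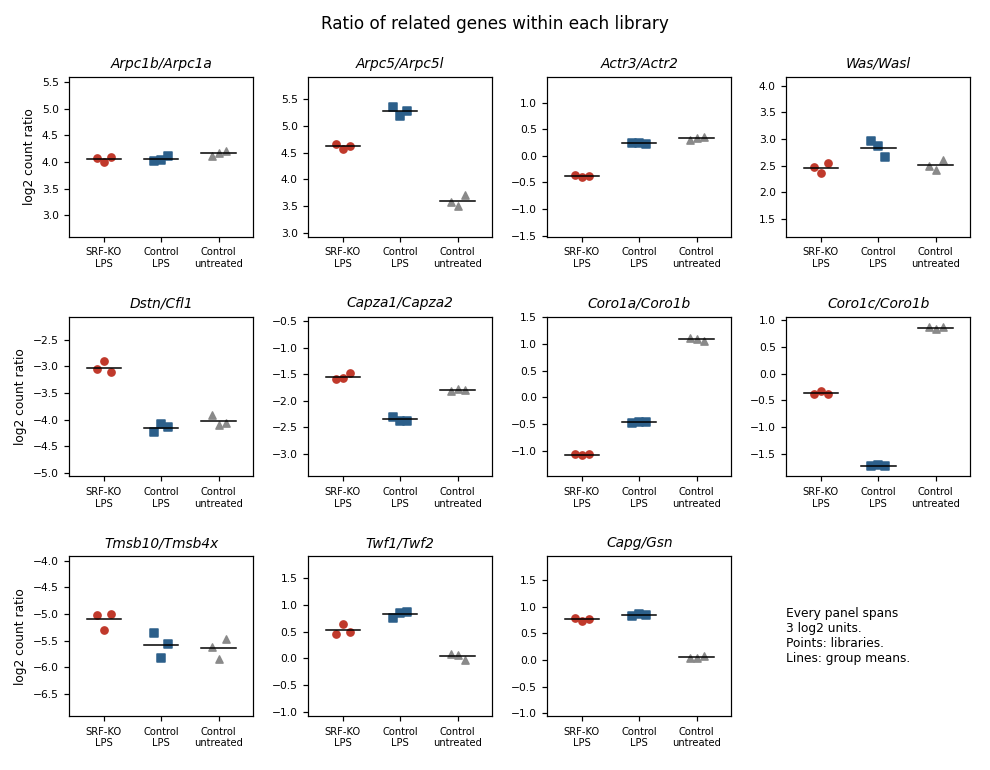
Log2 ratio of the counts of 2 related genes in each library (y axis, 3 log2 units in every panel), for SRF-KO LPS, Control LPS and untreated Control from left to right, with lines at group means. Actr3 to Actr2 stood at -0.38 in SRF-KO LPS, 0.24 in Control LPS and 0.33 in untreated Control, whereas Arpc1b to Arpc1a stood at 4.05 in SRF-KO LPS, 4.06 in Control LPS and 4.16 in untreated Control.

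A further 111 genes of actin regulation outside the 40 (other WASP and WAVE family genes, formins, small GTPases and their effectors, crosslinkers) moved less evenly. Of the 86 tested, 46 were lower and 31 higher in SRF-KO LPS than in Control LPS (median log2 fold change -0.17), or 32 and 45 with library totals (median 0.19). Of all tested genes 37.9% were lower and 39.1% higher, or 21.1% and 61.1% with library totals. Between Control LPS and untreated Control 47 were higher and 30 lower (median 0.25), or 29 and 48 with library totals (median -0.30), beside 40.8% of all tested genes in each direction, or 21% and 67.8% with library totals. The genes with the smallest p in SRF-KO LPS against Control LPS were Aif1, Coro2a, Carmil1, Vav1, Rhob and Fnbp1l. Aif1 (IBA1), an actin-bundling protein of macrophages, was at 11.1 ± 0.583 CPM in SRF-KO LPS, 186 ± 2.80 CPM in Control LPS and 188 ± 6.31 CPM in untreated Control (SD, n = 3 each). Its -4.06 against Control LPS was a larger fall than that of any of the 40. Coro2a, another coronin, was at 63.4, 61.3 and 59.1 CPM in SRF-KO LPS, 291, 280 and 282 CPM in Control LPS and 191, 198 and 211 CPM in untreated Control. Vav1, a signalling protein of blood cells, and Fnbp1l, which recruits N-WASP to membranes, were lower too (log2 fold changes of -1.59 and -1.66). Carmil1, which takes capping protein off filament ends, and the GTPase gene Rhob were higher in SRF-KO LPS (1.95 and 2.21). Carmil1 was at 196 ± 1.80 CPM in SRF-KO LPS, 50.7 ± 1.32 CPM in Control LPS and 36.1 ± 1.93 CPM in untreated Control.

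Among the genes with the smallest p for LPS in Control cells were Fnbp1l, Rac2 and Dbnl, all 3 higher under both scalings. Rac2, the blood cell GTPase that acts on the WAVE complex, was at 864 ± 27.1 CPM in Control LPS and 218 ± 12.5 CPM in untreated Control, with 517 ± 8.37 CPM in SRF-KO LPS. Fnbp1l and Dbnl, which couples actin to endocytosis, gave log2 fold changes of 2.39 and 1.97 with LPS in Control cells. Both were lower in SRF-KO LPS than in Control LPS and higher than in untreated Control.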

How the data were processed

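RNA was sequenced from 9 libraries in 3 groups of 3, which were mapped to groups by the sample titles. Libraries were made with a stranded TruSeq kit, per the labels' protocols. Per the submitters' processing notes, bcl2fastq 2.19, Trimmomatic, STAR 2.5.4b, featureCounts and edgeR were used with GRCm38; for options, annotation release and strandedness of the counting, the entry is not given in the sources used here. Each deposited file holds whole-number read counts per Ensembl gene, without normalization, per the file headers. Symbols were found for 22214 of 22524 identifiers. Positions and merged exon lengths came from GENCODE mouse release M21 (GRCm38), and promoter windows from RefSeq on GRCm38.p6.

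The test was run with edgeR 4.0.16 under R 4.3.3 (filterByExpr, TMM, glmQLFit with robust estimation, glmQLFTest), with all 9 libraries in 1 fit, group as the only term and Benjamini-Hochberg adjustment over 11560 genes. The common biological coefficient of variation was 3.46%. Standard errors were derived from the fold change and the F statistic. Within-library log2 ratios used counts plus 0.5. Calls passed at an adjusted p below 0.05, with no minimum fold. The fit was checked on simulated counts in which few genes changed, equally in both directions. That check therefore does not bear on the choice of scaling. Replicate pairs differed by more than sampling noise (chi-square per degree of freedom 1.75 to 3.95). Alternatives were library totals, DESeq2 1.42.0, no filter on low counts, fits of the 2 groups compared, a replicate block and leaving out each library. The genes and lists were chosen with earlier results of these data known. Of the other actin regulators, the text names the 6 and 4 with the smallest p in the 2 main comparisons, except 1 that is not reported here. Exons of 13 of the 40 genes overlap those of another counted gene, so their reads cannot be told apart with certainty. The longest overlap was 1316 bases, between Cyfip1 and Nipa2 on opposite strands. Same-strand overlaps were the longest ones of Coro1b (432 bases, with Ptprcap), Arpc4 (283 bases, with Ttll3) and Arpc5l (62 bases, with Wdr38). Protein sequences were not used here.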

Additional observations from a re-analysis of the deposited data

How the results depend on the processing

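Scaling was the choice that moved these results most, and the cause was not tested. With library totals in place of TMM, 8 genes were higher in SRF-KO LPS than in Control LPS (2 with TMM), 11 higher and 26 lower in Control LPS than in untreated Control (31 and 7), and 6 higher in SRF-KO LPS than in untreated Control (12). Medians with library totals follow in the order all 40 genes, Arp2/3, WASP and WAVE, monomer binding, severing, coronins and capping. They became -0.30, -0.30, -0.20, -0.50, 0.11, -0.90 and -0.19 for SRF-KO LPS against Control LPS. For Control LPS against untreated Control they became -0.26, -0.32, -0.18, -0.39, -0.29, -0.45 and -0.25 (all reversed). For SRF-KO LPS against untreated Control they became -0.41, -0.47, -0.25, -0.86, -0.72, -1.18 and -0.28. Single genes that reversed were Arpc5l 0.25, Wasl 0.25, Twf2 0.15, Gsn 0.11, Limk1 0.12, Capza1 0.17 and Capg 0.0321 for SRF-KO LPS against Control LPS. For Control LPS against untreated Control they were Arpc1a -0.34, Arpc1b -0.44, Arpc2 -0.22, Arpc3 -0.32, Arpc4 -0.40, Was -0.18, Wasl -0.50, Wasf2 -0.0262, Nckap1l -0.20, Brk1 -0.37, Pfn1 -0.39, Tmsb4x -0.38, Tmsb10 -0.33, Cfl1 -0.16, Dstn -0.29, Coro7 -0.14, Capza1 -0.11, Capzb -0.40 and Capg -0.41. For SRF-KO LPS against untreated Control they were Actr2 -0.0861, Coro1b -0.0377 and Capza2 -0.18.

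Other settings moved values little. For Control LPS against untreated Control without a filter on low counts, the median of all 40 genes was 0.27 and that of WASP and WAVE 0.35. With only the compared groups these medians were 0.27 and 0.35. With DESeq2, WASP and WAVE gave 0.38 and Twf2 became 0.0033. Capza2 became -0.0002 in SRF-KO LPS against untreated Control without the filter. Leaving out each library gave medians for SRF-KO LPS against Control LPS of -0.69 to -0.64 (all 40 genes), -0.69 to -0.64 (Arp2/3) and -0.60 to -0.55 (WASP and WAVE). For Control LPS against untreated Control they were 0.29 to 0.32 (all 40 genes), 0.36 to 0.38 (WASP and WAVE) and 0.11 to 0.18 (monomer binding). For SRF-KO LPS against untreated Control they were -0.13 to -0.0205 (WASP and WAVE) and -0.10 to -0.0807 (capping). Leaving out each library also gave Twf2 -0.0335 to 0.0203 and Wasl -0.0417 to 0.11 in Control LPS against untreated Control. Capza2 gave -0.0445 to 0.0425 in SRF-KO LPS against untreated Control. The log2 ratio Arpc1b to Arpc1a gave -0.0259 to 0.0252 (SRF-KO LPS against Control LPS). Tmsb10 to Tmsb4x gave -0.0589 to 0.18 (Control LPS against untreated Control) and Was to Wasl -0.0902 to 0.0085 (SRF-KO LPS against untreated Control). A CArG box with at most 1 mismatch stood in 13.6% of windows of these genes and 21.1% of all windows. Same-numbered libraries did not deviate together (correlations -0.07 to 0.10), and with the replicate number as a block 35 genes were still lower and 2 higher in SRF-KO LPS than in Control LPS, with no call among the 40 changed in any comparison. Depth limits Fscn1 in untreated Control (33 counts in all) and the low genes Wasl, Arpc5l and Limk1.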
